A study of Mus musculus with 14 samples.

Results

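The motile cilia genes measured here were chosen by name: every gene whose symbol starts with Cfap, Dnah, Rsph, Tekt, Drc, Spag or Dnaaf followed by a digit, together with Foxj1. The table of log2 CPM values (reads per gene scaled to a common library size, on a log2 scale) held 76 such genes among 16703. Dnai1 and Dnai2, which the choice also asks for, are not listed under these names. Dnaic1 and Dnaic2, the earlier symbols of the same genes, are given beside the chosen genes and not counted with them. Of the 76 genes, 65 are Foxj1 or encode a part of the moving axoneme or a factor that builds its motors. Another 7 carry a Spag or Cfap name and were grouped as having a role elsewhere (Spag4, Spag5, Spag7, Spag9, Cfap36, Cfap97 and Cfap410). For Cfap97 no such role is named here. The last 4 were not placed in a role (Cfap58, Cfap157, Cfap97d2 and Cfap299).

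A motile cilium is a bundle of microtubule doublets around a central pair. Dynein motors stand on the doublets in an outer and an inner row, radial spokes and the nexin-dynein regulatory complex coordinate them, the central apparatus signals to the spokes, and filaments inside the doublets hold the structure together. In the spinal cord such cilia belong mainly to the ependymal cells that line the central canal, and the transcription factor FOXJ1 switches on their genes, largely together with RFX factors. Ependymal cells are a small share of the tissue, and several of these genes are also used in sperm or in cells without motile cilia.

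RNA came from whole spinal cords of young adult C57Bl/6 mice with experimental autoimmune encephalomyelitis (EAE), an inflammatory disease raised by immunization with a peptide of a myelin protein in complete Freund's adjuvant. The females had been ovariectomized and the males castrated, so all groups lacked gonadal hormones of their own. Intranasal treatment began when disability appeared. The 4 groups were females given dihydrotestosterone (DHT, an androgen that cannot be turned into estradiol; 3 libraries), females given vehicle (4 libraries), males given DHT (3 libraries) and males given vehicle (4 libraries). Each library is taken as 1 animal. The authors joined the females and the males as separate datasets through their normalization, so sex and dataset cannot be told apart, and whole cord mixes all cell types.

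The values resolved into 29311155 to 35761972 whole counts per library, called reads below. The authors joined the datasets before the CPM step, so these may be adjusted counts and not sequenced reads. Libraries are named by group and by the number in their column heading. Each library could be written closely as a combination of the other 13. Over 10958 genes the share of its variance ran from 99.82% in female DHT 1 to 99.99998% in male DHT 3, with 99.99993% in female vehicle 3. The direction that the 14 libraries together lack had 62.8% of its squared weight in male DHT 3, 23.6% in female vehicle 3 and 3.80% in female DHT 2. Xist, which female cells transcribe to silence an X chromosome, went against the label of male DHT 3. Its log2 CPM was 7.41 there, against -2.18 and -0.14 in the other male DHT libraries. In female vehicle 3 it was 3.04, against 7.92 to 8.35 in the other female vehicle libraries. In female DHT 1, 2 and 3 it was 9.22, 6.80 and 8.73. The libraries are therefore not fully independent. Whether the joint normalization shifted these values, or whether male DHT 3 or female vehicle 3 was mislabelled or mixed with another library, was not tested. All results below take the labels as given, and results in males are also given without male DHT 3 where a call rests on it. Over all genes, 547 rose and 655 fell in males without it (3.27% and 3.92%). In females, T cell markers averaged 3.25 log2 units less with DHT than with vehicle and myeloid markers 1.86 less, while neuron markers averaged 0.51 more (10 genes in each list). In males these differences were -0.97, -1.13 and 0.40, and -0.75, -1.07 and 0.37 without male DHT 3. Whether these marker differences came from cell numbers or from RNA per cell cannot be told apart in whole cord. Their part in the results below was not tested.

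Most of the cilia genes were faint in the cord. Their mean log2 CPM over all 14 libraries ran between -1.47 for Cfap58 and 8.68 for Spag9, with a median of 1.83 beside 4.47 for all genes, and 15 of the 76 lay below 0. The fewest reads of any of them in any library were 2, for Cfap58. Per kilobase of annotated exon, Foxj1 was the highest of the genes with a role in motile cilia, at 12.02 CPM per kb. Cfap410, Cfap47 and Dnaaf4 had no exon length in the annotation under these names. The dynein heavy chains, which are very long, lay at 0.0355 to 0.426 CPM per kb in the outer arm (Dnah17 to Dnah9) and 0.0374 to 0.826 in the inner arm (Dnah3 to Dnah7b). Radial spoke genes spanned 0.106 to 3.07 CPM per kb and central apparatus genes 0.0814 to 2.93, with Cfap69 at the top. The 3 highest genes per kb of the whole set were outside the axoneme: Spag9 at 37.4, Cfap36 at 27.3 and Spag7 at 21.7 CPM per kb.

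RFX factors bind the X-box, a mirrored pair of short sites that is known from the promoters of many cilia genes, and FOXJ1 binds forkhead sites. RefSeq promoters on GRCm38.p6, each with 250 bases before and 50 after the gene start, were found for 63 of the 76 genes. They were searched on both strands for the X-box as gtnnccnnggnnac, which reads the same on both strands, for the narrower gttnccnnggnaac, which is contained in it, and for the forkhead site tgtttac. The wider X-box occurred in 9 of the 63 genes, or 14.3%, beside 2.16% of all 27025 genes with a promoter. The narrower one occurred in 1 gene, Cfap298 (1.59%, beside 0.529% of all genes), and the forkhead site in 3 (Cfap20, Cfap43 and Dnah17; 4.76%, beside 4.05%). A match is a stretch of letters and not a measured binding site. Below are the promoters of the X-box genes that changed with DHT in either sex, Spag6l (chr16:16829314-16829613, minus strand) and Dnaaf5 (chr5:139149985-139150284, plus strand), and that of Cfap298 (chr16:90934800-90935099, minus strand), which holds the narrower match. Capitals mark the X-box match, which starts 34 bases after the RefSeq gene start in Spag6l, 18 before it in Dnaaf5 and 188 before it in Cfap298. These starts lie 93, 12 and 265 bases inside the genes as GENCODE annotates them, so the Cfap298 match falls within that gene.
Spag6l: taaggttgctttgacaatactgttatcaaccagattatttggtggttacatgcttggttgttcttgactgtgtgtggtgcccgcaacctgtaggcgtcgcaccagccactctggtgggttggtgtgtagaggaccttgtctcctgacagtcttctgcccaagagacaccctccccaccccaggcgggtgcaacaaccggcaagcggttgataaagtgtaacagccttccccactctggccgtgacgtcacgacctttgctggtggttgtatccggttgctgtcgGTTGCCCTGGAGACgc
Dnaaf5: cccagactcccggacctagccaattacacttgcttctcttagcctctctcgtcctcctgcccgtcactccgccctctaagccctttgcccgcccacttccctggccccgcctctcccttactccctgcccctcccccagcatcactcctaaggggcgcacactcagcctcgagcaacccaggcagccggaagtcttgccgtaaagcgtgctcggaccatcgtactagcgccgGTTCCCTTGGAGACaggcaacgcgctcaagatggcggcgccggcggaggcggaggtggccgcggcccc
Cfap298: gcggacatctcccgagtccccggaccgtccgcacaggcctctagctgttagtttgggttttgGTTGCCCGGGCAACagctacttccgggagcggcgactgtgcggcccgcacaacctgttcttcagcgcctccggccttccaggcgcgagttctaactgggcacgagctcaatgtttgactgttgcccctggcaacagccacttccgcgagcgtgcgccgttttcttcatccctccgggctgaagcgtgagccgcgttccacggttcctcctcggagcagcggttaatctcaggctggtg

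The other 6 genes with the wider X-box were Cfap206, Rsph9, Cfap126, Tekt4, Cfap77 and Spag5, the last a spindle protein with no known part in the axoneme. Their matches, all in capitals, are shown for comparison. In Rsph9, a spoke head protein, the match began 6 bases before the gene start and in Cfap206, a spoke base protein, 23 bases before it. In Cfap126, Tekt4 and Cfap77, proteins inside the doublets, and in Spag5 it lay 82, 160, 236 and 186 bases before the start. The promoters stand at chr17:46144151-46144450 (Rsph9), chr4:34730157-34730456 (Cfap206), chr1:171122795-171123094 (Cfap126), chr17:25471340-25471639 (Tekt4), chr2:29055017-29055316 (Cfap77) and chr11:78301341-78301640 (Spag5). The Cfap126 promoter is 1 of 3 that RefSeq gives for the gene. Its start lies 9127 bases inside the gene as GENCODE annotates it, and that of Tekt4 16975 bases inside. Those of Spag5 and Rsph9 lie 62 and 16 bases inside, and those of Cfap206 and Cfap77 at the annotated start. None of these 6 genes passed the test for DHT in either sex.
Rsph9: GTCTCCATGGAGAC
Cfap206: GTTTCCACGGTTAC
Cfap126: GTATCCATGGCTAC
Tekt4: GTGTCCTGGGAAAC
Cfap77: GTCACCAAGGAGAC
Spag5: GTAACCGGGGGAAC

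The first comparison asked which cilia genes DHT changed in females. Of the 76 genes, 13 rose and 2 fell (limma, Benjamini-Hochberg adjusted p under 0.05 over all 16703 genes), 17.1% and 2.63% of them, where 19.8% of all genes rose and 27.3% fell. The share that rose was thus near that of all genes. The median log2 fold change of the 76 genes, DHT minus vehicle, was 0.26, beside -0.02 for all genes, and 61 of the 76 had a positive value. Among the 65 genes with a role in motile cilia 10 rose, 2 fell and 53 did not pass the test. In 19 genes (25%) all 3 DHT libraries lay above all 4 vehicle libraries and in 2 (2.63%) below them, where 19.0% and 21.4% of all genes did so. In a bulk sample, more cells of a type and more RNA per cell cannot be told apart.

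In females the count of 15 changed genes turned on single libraries: leaving out female DHT 1, 2 or 3 gave 5, 5 and 24 genes, and leaving out female vehicle 2 or female vehicle 4 gave 9 and 8. Calls over all genes moved too. Without female DHT 1, 9.73% of all genes rose and 16.5% fell, without female DHT 2 11.2% and 17.1%, and without female DHT 3 23% and 30.2%. Without female vehicle 2 these shares were 19.2% and 26%, and without female vehicle 4 14.8% and 22.4%. With each sex fitted alone 8 cilia genes passed, where 12.9% of all genes rose and 15.6% fell. Cfap161, Cfap36, Cfap61, Cfap97, Cfap99, Dnaaf5, Dnah3 and Drc1 then lost their call, and Cfap46 gained one. With the missing direction as a covariate 12 passed, where 18% of all genes rose and 25.6% fell. Cfap61, Dnaaf5 and Drc1 lost their call there. The count of cilia genes also moved with scaling. Quantile normalization gave 36 rises and 1 fall and median centring 28 and 1. These scalings moved the median of all genes in females to 0.13 and 0.14, and the split of all calls to 5129 higher and 3235 lower (quantile) and 5565 higher and 3208 lower (centring), beside 3306 higher and 4565 lower calls in the values as deposited. Relative to the median of all genes, the median of the cilia genes was 0.28 higher as deposited, 0.40 higher after quantile normalization and 0.28 higher after centring.

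**Figure D1:**
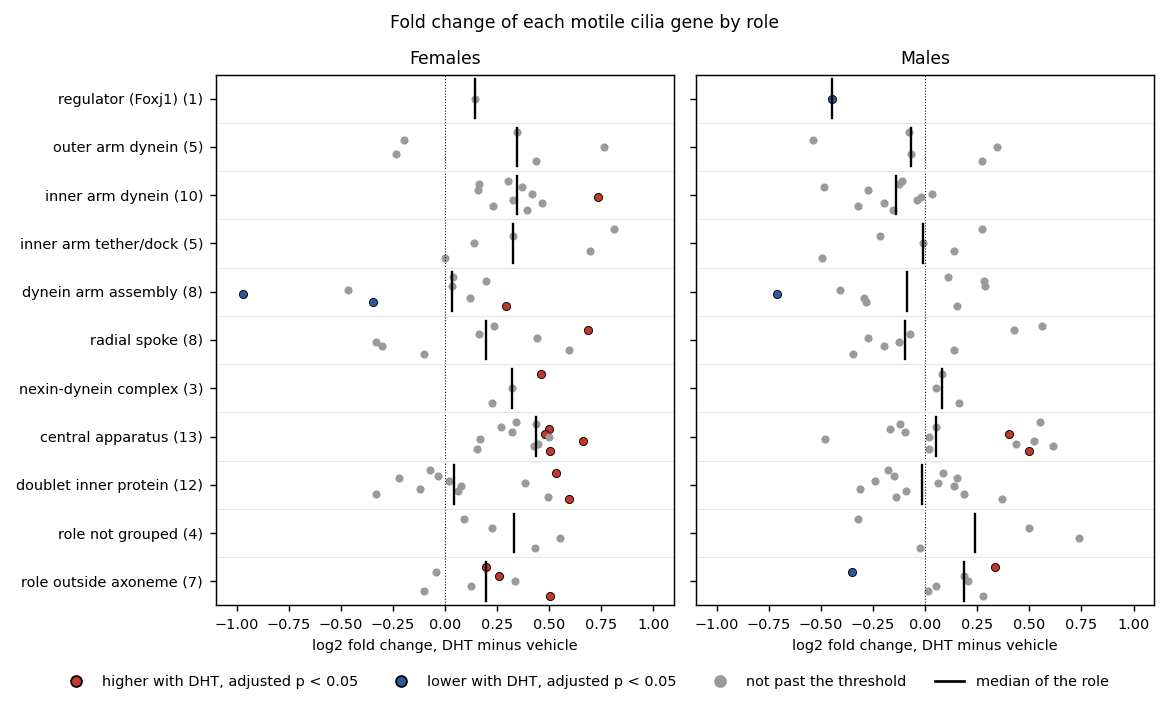
Log2 fold change (DHT minus vehicle) of each of the 76 genes in females (left) and males (right), by role, with the number of genes in brackets, a black bar for the median of the role and red or blue points for genes past an adjusted p of 0.05. In females the inner arm dyneins lie right of 0 in 10 of 10 cases, 1 of them past the threshold. In males 9 of 10 lie left of 0, none past the threshold. Of these genes Dnah2, Dnah6, Dnah7a, Dnah7c, Dnah10 and Dnah12 were lowest of all libraries in male DHT 2. Dnah1, Dnah3, Dnah7b and Dnah14 were not.

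The central apparatus held 4 of the 13 rises in females: Cfap69, Spag6l, Cfap54 and Cfap99 of 13 genes (30.8%, where 19.8% of all genes rose). All 13 values were positive, with a median log2 fold change of 0.44. Cfap69 (chr5:5579278-5664239), a central apparatus protein that mice also use in olfactory cilia, which do not beat, reached 4.87, 5.08 and 4.71 log2 CPM in the female DHT libraries, against 4.34, 4.56, 4.54 and 4.17 in the female vehicle libraries. All DHT values lay above all vehicle values. Its log2 fold change was 0.48 ± 0.11 (SE; adjusted p = 0.00551), and the call held in all 24 alternatives. Spag6l (chr16:16753016-16829456), a mouse copy of the central pair protein gene Spag6, had 1.71, 1.60 and 1.51 with DHT, against 1.11, 1.33, 1.09 and 0.88 with vehicle. Its groups were also apart (0.51 ± 0.14, SE, adjusted p = 0.0133, and 0.0643 without female DHT 1). Spag6 itself had a log2 fold change of 0.16 (adjusted p = 0.635), and because the copies are close, reads could be split between them. Cfap54, which builds a projection of the central pair, rose by 0.50 and Cfap99 by 0.66 on the log2 scale (adjusted p = 0.0280 and 0.0305). Without female DHT 1, female DHT 2 or female vehicle 4 neither passed, and Cfap54 also needed female vehicle 2, and Cfap99 female DHT 3 and female vehicle 1 (adjusted p up to 0.108 and 0.0832 over the alternatives).

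Among the dyneins 1 of 15 heavy chain genes passed the test in females, where 19.8% of all genes rose and 27.3% fell. Dnah3, an inner arm heavy chain, had a log2 CPM of -0.43, -0.45 and -0.36 with DHT, against -0.85, -1.79, -0.63 and -1.31 with vehicle, which is only 7 to 24 reads per library over all groups. Its log2 fold change was 0.73 ± 0.27 (SE; adjusted p = 0.0424). The call was lost in 8 of the 14 fits that left out 1 library, which took out a female DHT library, female vehicle 2 or 4, or male vehicle 1, 2 or 3 (adjusted p up to 0.105 over the alternatives). The outer arm chains Dnah5 and Dnah9, which drive the beat in ependymal and airway cilia, had log2 fold changes of 0.76 and 0.44 and did not pass (adjusted p = 0.0581 and 0.0757). Dnah8 and Dnah17, outer arm chains known from sperm, had negative values of -0.24 and -0.19. The inner arm chains all had positive values, between 0.16 and 0.73, with a median of 0.35.

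The genes that assemble dynein arms in the cytoplasm moved in both directions in females, with 1 rise and 2 falls among 8. These were 12.5% and 25%, where 19.8% of all genes rose and 27.3% fell. Dnaaf3 (chr7:4522933-4532453) had the largest fall of the 76 genes, with a log2 CPM of 1.26, 1.32 and 2.11 in DHT libraries, against 2.36, 2.37, 2.67 and 2.73 in vehicle libraries. DHT values all lay below vehicle values, female DHT 3 being nearest to them. The log2 fold change was -0.97 ± 0.22 (SE; adjusted p = 0.00569) and the call held in all 24 alternatives. Dnaaf3 shares 12.6% of its exon bases with Gm15873 on the other strand, and although the library kit was a directional one, the strand setting of the counting is not given in the sources used here. Dnaaf5 fell by 0.35 (adjusted p = 0.0361), a call that was lost under both scalings (up to 0.438) and without female DHT 1 (0.129), female DHT 2 (0.149), female vehicle 1 (0.0679), female vehicle 2 (0.0858) or female vehicle 4 (0.0782). Spag1, a further assembly factor, had 4.92, 4.93 and 4.79 with DHT, against 4.64, 4.57, 4.68 and 4.45 with vehicle, a rise of 0.29 ± 0.08 (SE; adjusted p = 0.0134). The groups did not overlap, and without female DHT 1 or female DHT 2 the adjusted p was 0.0576 and 0.0599.

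The remaining structures gave 4 more rises in females. Tekt5 (chr16:10357948-10395490), a tektin, that is a filament protein inside the doublets, had a log2 CPM of 4.19, 4.14 and 3.86 with DHT, against 3.43, 3.76, 3.47 and 3.21 with vehicle. It stood apart from vehicle in every DHT library, with a log2 fold change of 0.60 ± 0.13 (SE; adjusted p = 0.00517), and kept the call in all 24 alternatives. Cfap161, a protein inside the doublet with 21 to 46 reads per library, rose by 0.54 (adjusted p = 0.0270). Cfap61, a protein at the base of radial spokes, rose by 0.69 (adjusted p = 0.0364), and Drc1, a core subunit of the nexin-dynein regulatory complex, by 0.46 (adjusted p = 0.0306). Without female DHT 2 or female vehicle 2 none of these 3 passed. Cfap161 also lost its call without female DHT 1, female DHT 3 or female vehicle 3, Cfap61 without female DHT 1, female vehicle 1 or female vehicle 4, and Drc1 without female vehicle 4 (adjusted p up to 0.0879, 0.154 and 0.171 over the alternatives). Rsph4a, a spoke head protein, had a value of 0.59 that did not pass (adjusted p = 0.0858), as did Drc3 and Drc7 of the regulatory complex, at 0.32 and 0.23 (adjusted p = 0.0648 and 0.558). None of the 5 genes that tether or dock inner arms passed, although Cfap100 had the largest value of the set, 0.81 ± 0.48 (SE; adjusted p = 0.180), and Cfap57 had 0.70 (adjusted p = 0.0865). Among 12 doublet proteins 2 rose (16.7%, where 19.8% of all genes rose) and none fell. The median was 0.04, with Tekt2, another tektin, at -0.33 (adjusted p = 0.0914).

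**Figure D2:**
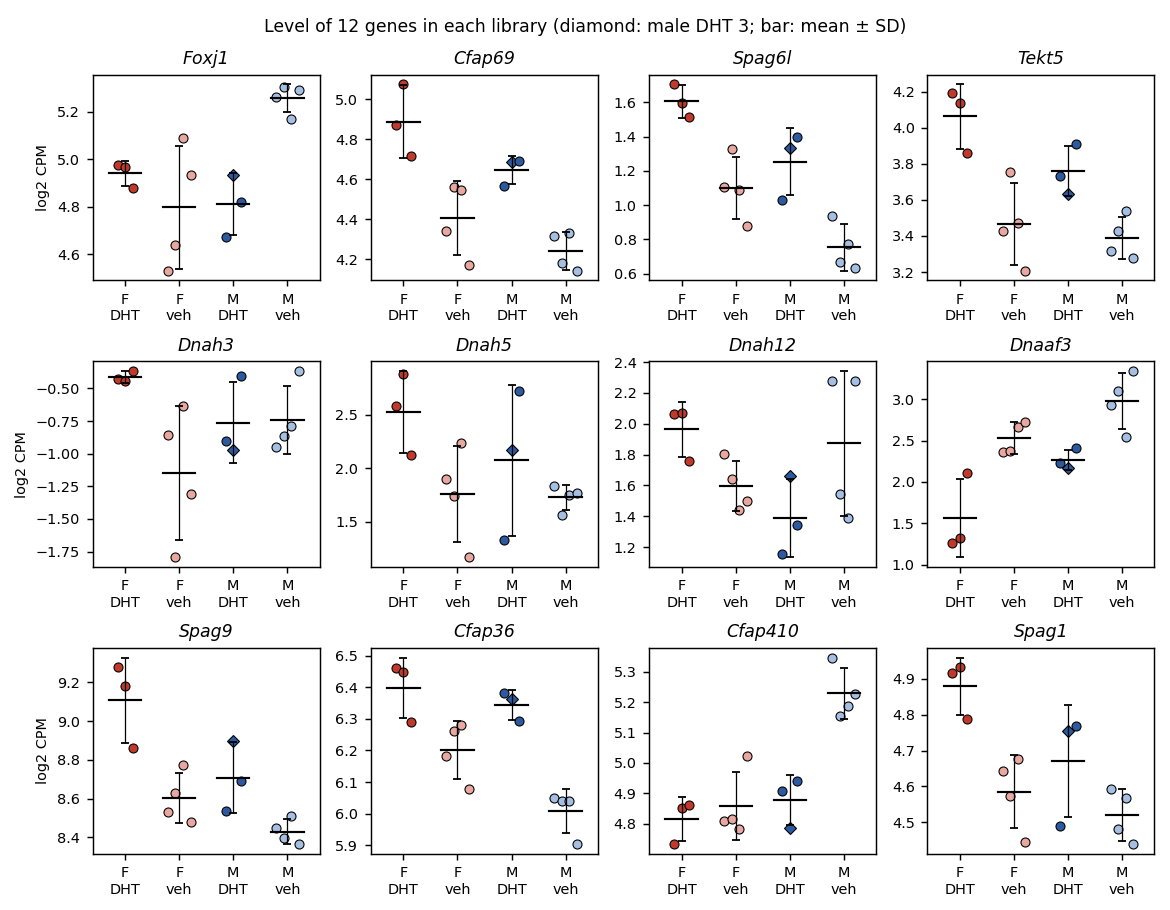
Log2 CPM of 12 genes in each library, with the mean and SD of each group (3 DHT and 4 vehicle libraries of each sex). Foxj1 and Cfap410 lie lower in all male DHT libraries than in all male vehicle libraries, Cfap69 and Spag6l higher in the DHT libraries of both sexes.

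The second comparison was that of DHT with vehicle in males. Here 3 of the 76 genes rose and 3 fell (3.95% each), where 12.1% of all genes rose and 10.7% fell, and the median log2 fold change was 0.00, as for all genes. DHT libraries all lay above vehicle libraries in 6 genes (7.89%) and below them in 5 (6.58%), where 18.5% and 20.4% of all genes did so. Without male DHT 3 the counts were 1 rise and 2 falls, where 3.27% of all genes rose and 3.92% fell. Without male vehicle 4 they were 2 rises and 1 fall, where 5.52% of all genes rose and 4.88% fell. Without female DHT 3, which enters the shared estimate of spread, they were 6 rises and 5 falls, where 14.3% and 14.6% did so. With both male DHT 3 and female vehicle 3 left out, Cfap36 and Foxj1 remained, where 3.11% of all genes rose and 3.44% fell. With the missing direction as a covariate, Cfap36, Cfap69 and Cfap410 passed and Foxj1 did not (adjusted p = 0.0614). Among the 65 genes with a role in motile cilia 2 rose, Cfap69 and Spag6l, and 2 fell, Foxj1 and Dnaaf3.

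Foxj1 (chr11:116330704-116335399), the master regulator of motile cilia genes, fell in males. Its log2 CPM was 4.67, 4.93 and 4.82 in male DHT libraries, against 5.26, 5.31, 5.17 and 5.29 in male vehicle libraries. All DHT values were below all vehicle values. The log2 fold change was -0.45 ± 0.12 (SE; adjusted p = 0.0191), and -0.51 (adjusted p = 0.0420) without male DHT 3. The call was lost without male DHT 2 (adjusted p = 0.0634), without male vehicle 4 (0.0527) and in the fit with the covariate named above (0.0614). In females Foxj1 had 4.97, 4.97 and 4.88 with DHT, against 4.53, 4.64, 5.09 and 4.93 with vehicle. The groups overlapped, with the vehicle libraries spread widely, and the log2 fold change was 0.14 ± 0.12 (SE; 95% interval -0.11 to 0.39; adjusted p = 0.328).

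The other axonemal genes did not share a direction in males. The values of Cfap69 were 4.56, 4.68 and 4.69 log2 CPM in male DHT libraries, against 4.32, 4.18, 4.33 and 4.14 in male vehicle libraries, a log2 fold change of 0.40 ± 0.11 (SE; adjusted p = 0.0212). Spag6l had 1.03, 1.34 and 1.40, against 0.94, 0.67, 0.78 and 0.63, a log2 fold change of 0.50 ± 0.14 (SE; adjusted p = 0.0274). In both genes the DHT libraries lay above the vehicle libraries. Neither passed without male DHT 3 (adjusted p = 0.0788 for Cfap69 and 0.102 for Spag6l), male DHT 4 or male vehicle 4, and Spag6l also not without male vehicle 2. Dnaaf3 had 2.23, 2.17 and 2.41, against 2.93, 3.10, 2.55 and 3.34, again all lower with DHT, with a log2 fold change of -0.71 ± 0.22 (SE; adjusted p = 0.0367). That call was lost without any one male DHT library (0.120 without male DHT 3) or without male vehicle 1, 2 or 4. Cfap69, Spag6l, Dnaaf3 and Cfap36 were the genes that passed in both sexes, each in the same direction. The inner arm dyneins had values between -0.48 and 0.03 with a median of -0.14, the central apparatus genes between -0.48 and 0.61 with a median of 0.05, and apart from Cfap69 and Spag6l no gene of either group passed. Nearest to the threshold was Cfap74 of the central apparatus, at -0.48 (adjusted p = 0.0544), with Cfap206 of the spoke base at 0.56 (adjusted p = 0.0541). In male DHT 2 several axonemal genes were the lowest of all libraries, for example Dnah6, an inner arm chain, at 1.55 against 2.20 to 2.75 in male vehicle libraries, and Cfap100 at 1.84 against 2.26 to 3.35. The median over the 76 genes in males was 0.14 without male DHT 2 and -0.12 without male DHT 4.

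The difference of the DHT effect between the sexes was tested in the same model as females minus males. None of the 76 genes passed, where 0.503% of all genes had a higher and 1.35% a lower effect in females. In limma 9 of the 76 had an unadjusted p under 0.05, where 4672 of all 16703 genes did, a larger share. Voom on the recovered reads also gave 0 calls and 9 such genes, where 4914 of all genes had an unadjusted p under 0.05. Without male DHT 3 none of the 16703 genes passed in limma, while 4250 had an unadjusted p under 0.05. Foxj1 had the smallest p, with a difference of 0.59 ± 0.16 (SE; unadjusted p = 0.00345, adjusted p = 0.0661). That adjusted p ran between 0.0244 and 0.162 over the alternatives, and it passed under quantile normalization (0.0480), without female DHT 3 (0.0244) and when female vehicle 3 was left out (0.0318). Next was Dnah7b, an inner arm chain, with a difference of 0.55 (adjusted p = 0.0777). Its log2 CPM was 4.25, 4.24 and 3.97 in female DHT libraries against 3.98, 3.81, 3.97 and 3.92 in female vehicle libraries, and 3.81, 4.02 and 3.78 in male DHT libraries against 4.37, 3.94, 4.08 and 4.37 in male vehicle libraries. Groups overlapped in both sexes. Dnah12, also of the inner arm, had the largest difference of the set, 0.85 (adjusted p = 0.121), from log2 fold changes of 0.37 (females) and -0.48 (males). Dnah7a, Dnah7b and Dnah7c are near-identical copies, so that their reads may be divided uncertainly. In all, 26 of the 76 genes had a positive value in females and a negative one in males, 3 had the reverse, 35 were positive in both and 12 negative in both. Without female DHT 3, Foxj1, Cfap54, Dnah1, Dnah7b and Dnah7c passed, all with a higher effect in females, and among all genes 1086 with a higher and 3150 with a lower effect then passed.

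The 7 genes grouped as outside the axoneme included the most abundant gene and 4 of those that changed. In females 3 rose (42.9%, where 19.8% of all genes rose) and none fell. In males 1 rose and 1 fell (14.3% each), where 12.1% of all genes rose and 10.7% fell. Spag9 (chr11:93996091-94126085), a scaffold that links kinesin and dynein motors to vesicles, had the highest level. Its log2 CPM was 9.28, 9.18 and 8.86 in female DHT libraries, against 8.53, 8.63, 8.77 and 8.48 in female vehicle libraries, and 8.53, 8.90 and 8.69 in male DHT libraries, against 8.45, 8.40, 8.51 and 8.36 in male vehicle libraries. DHT lay above vehicle in every library of both sexes, but only the female comparison passed (0.51 ± 0.11 in females, adjusted p = 0.00527, and 0.28 ± 0.11 in males, adjusted p = 0.0858, both SE). The difference between the sexes was 0.23 (adjusted p = 0.355). Cfap36 (chr11:29221532-29247409), which binds the small GTPase ARL3, had 6.46, 6.45 and 6.29 with DHT against 6.18, 6.26, 6.28 and 6.08 with vehicle in females, and 6.38, 6.36 and 6.29 with DHT against 6.05, 6.04, 6.04 and 5.90 with vehicle in males. It rose in both sexes without overlap, by 0.20 (adjusted p = 0.0257) in females and 0.34 (adjusted p = 0.00694) in males, and the male call held in all 24 alternatives. In females that call was lost without female DHT 1 (adjusted p = 0.115), female DHT 2 (0.102), female vehicle 1 (0.0550) or female vehicle 4 (0.0688). Cfap97 rose by 0.26 in females (adjusted p = 0.0270), a call lost without female DHT 1 or 2 or female vehicle 1 or 2 (up to 0.112 over the alternatives).

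Cfap410, a partner of the kinase NEK1 at the base of cilia, fell in males. It had a log2 CPM of 4.91, 4.79 and 4.94 in male DHT libraries, against 5.35, 5.16, 5.19 and 5.23 in male vehicle libraries, with no overlap. The log2 fold change was -0.35 ± 0.07 (SE; adjusted p = 0.00913), and the adjusted p was 0.0536 with both male DHT 3 and female vehicle 3 left out. In females it had 4.73, 4.85 and 4.86 with DHT against 4.81, 4.82, 4.78 and 5.02 with vehicle, and a log2 fold change of -0.04 (adjusted p = 0.656). The difference between the sexes was 0.31 (adjusted p = 0.101). Spag4, Spag5 and Spag7 did not pass in either sex.

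How alike the genes were was then described as the Pearson correlation of each gene with the mean of the other axonemal genes over the 14 libraries, after the mean of its group had been taken out, for the 48 genes whose mean log2 CPM reached 1. These libraries share a table-wide normalization and are not fully independent. The 39 axonemal genes had a median r of 0.60, and 16 had an r of at least 0.7. Dnah11 (0.92), Cfap65 (0.90) and Dnah6 (0.90), an outer arm chain, a central apparatus protein and an inner arm chain, were most like the rest, followed by Cfap46 (0.87) and Cfap54 (0.87) of the central apparatus. Spearman's rho was 0.86, 0.88, 0.88, 0.81 and 0.82 in these 5 genes. The 7 genes outside the axoneme had a median r of 0.16 and none at 0.7. Foxj1 had an r of 0.28.

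Several genes that changed with DHT lay below that median. Tekt5 had an r of 0.07 with that mean and 0.68 with the mean of 10 neuron markers, Cfap69 0.40 and 0.83, Spag9 0.46 and 0.87, and Cfap36 -0.01 and 0.87. In the median of the 39 axonemal genes the r with neuron markers was 0.20. Dnaaf3 had -0.07 and -0.60, and Dnaaf5 -0.36 and -0.61. Rsph3a (-0.56), Rsph3b (-0.42) and Dnah14 (-0.38) ran against the axonemal mean. Rsph3a and Rsph3b are near-identical copies of a spoke stalk gene. Neuron markers differed between DHT and vehicle in both sexes, as given above, and their part in the changes of Tekt5, Cfap69, Spag9 and Cfap36 was not tested.

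**Figure D3:**
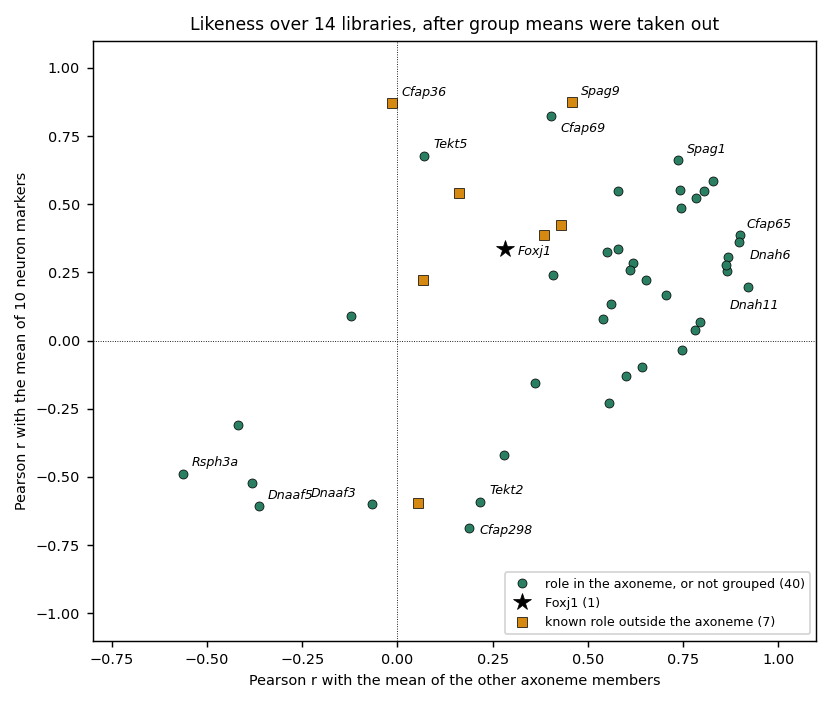
Pearson r of each of the 48 genes whose mean log2 CPM reached 1 with the mean of the other axonemal genes (horizontal) and with the mean of 10 neuron markers (vertical), over 14 libraries after group means were removed. Dnah11, Cfap65 and Dnah6 lie at the right edge, and Spag9, Cfap36 and Cfap69 at the top, with an r of 0.83 to 0.87 with neuron markers.

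The rest of the motile cilia programme was followed with lists of genes under other names. Of 62 other axonemal genes 8 rose (12.9%) and 1 fell (1.61%) in females, where 19.8% of all genes rose and 27.3% fell, with a median log2 fold change of 0.19. No such gene rose in males and 2 fell (3.23%), where 12.1% of all genes rose and 10.7% fell, with a median of 0.02 and a difference of list means of -0.01. Ropn1l, a protein of radial spokes, fell in both sexes, by 1.08 on the log2 scale in females (adjusted p = 0.00478) and by 1.03 in males (adjusted p = 0.00909, and 0.0388 without male DHT 3). Dnal1, a light chain of the outer arm dynein, rose by 0.37 in females (adjusted p = 0.0118), as did Tppp3 by 0.40 (adjusted p = 0.0139), and Ttc12, a factor in dynein assembly, fell by 0.49 in males (adjusted p = 0.0157, and 0.0517 without male DHT 3). Dnaic1 and Dnaic2, the intermediate chains of the outer arm, went apart. Dnaic1 stood at 2.33, 2.27 and 1.96 log2 CPM in female DHT libraries against 1.51, 1.82, 1.76 and 1.43 in female vehicle libraries, with a log2 fold change of 0.56 (adjusted p = 0.0345) and no overlap. Dnaic2 had -0.39 (adjusted p = 0.0646). In males their values were -0.28 and -0.36, and neither passed (adjusted p = 0.325 and 0.122).

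A list of 18 genes of the multiciliation programme held mostly regulators and also 2 tubulins, Tuba1a and Tubb4b. Of these 18 genes, 6 fell in females and none rose (33.3% and 0%), where 27.3% of all genes fell and 19.8% rose. Tuba1a was 1 of the 6. The median was -0.26. The share that fell was thus near that of all genes. In males Rfx2 and Rfx4 fell (11.1%, where 10.7% of all genes fell) and none rose, with a median of 0.08 and a difference of list means of -0.01. Without male DHT 3 neither passed (adjusted p = 0.102 and 0.0705). E2f4, which works in the complex that starts multiciliation, fell by 0.54 (adjusted p = 0.00497) and Cep152, a centriole duplication factor that all dividing cells use, by 0.56 (adjusted p = 0.00633) in females. Rfx2, an X-box binding factor, fell by 0.36 in females (adjusted p = 0.0137) and by 0.35 in males (adjusted p = 0.0300). Rfx1 fell by 0.30 in females (adjusted p = 0.0123).

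Genes of transport within cilia are shared with the primary cilia of neurons and glia. Among 40 such genes, females had 15 rises (37.5%, where 19.8% of all genes rose) and 1 fall, that of Kif3b, and males 6 rises (15%, where 12.1% of all genes rose) and 2 falls, those of Ift27 and Ift140. The medians were 0.20 and 0.12. Without male DHT 3 no gene of the list rose in males and 1 fell, Ift140, where 3.27% and 3.92% of all genes did so. Dync2h1, the motor of retrograde transport, rose by 0.52 in females (adjusted p = 0.00490), and Kifap3, a subunit of the anterograde kinesin, by 0.55 in females (adjusted p = 0.00550) and 0.38 in males (adjusted p = 0.0441, and 0.171 without male DHT 3). Bbs4, a subunit of the BBSome, rose by 0.28 and 0.33 in females and males (adjusted p = 0.00926 and 0.0117, and 0.0588 in males without male DHT 3). Traf3ip1, a subunit of the same transport trains, rose by 0.28 in females (adjusted p = 0.00662).

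Genes of ependymal cells outside the axoneme were read as a list of their own. The mean log2 CPM of these 13 genes, many of which astrocytes or immune cells also express, was 4.69, 4.67 and 4.92 in female DHT libraries, against 4.91 to 5.14 in female vehicle libraries. In males it was 4.88, 4.89 and 4.91 with DHT, against 5.27, 5.11, 5.22 and 5.41 with vehicle. The female difference was -0.26 (two-sided exact permutation p = 0.0571) and the male one -0.36 (exact permutation p = 0.0286, the smallest that 35 splits allow). Myeloid, neuron and oligodendrocyte markers also reached this smallest p in males. In females the multiciliation list and T cell, myeloid and oligodendrocyte markers reached it. Without male DHT 3 the male difference of the ependymal list was also -0.36, with no overlap. In females Slc39a12, Cdhr3 and S100b rose and Vim, Ezr, Cd24a, Rarres2 and Hspa2 fell. These were 23.1% and 38.5% of the list, where 19.8% of all genes rose and 27.3% fell. Vim, an intermediate filament of reactive glia and of immune cells, fell by 1.74, and Ezr, a membrane linker, by 1.22 (adjusted p = 0.00555 and 0.00786). Slc39a12, a zinc transporter, rose by 0.75 (adjusted p = 0.0108). In males Rarres2 and Sox2 fell (15.4%) and Cd24a rose (7.69%), where 10.7% of all genes fell and 12.1% rose. Of Rarres2, Sox2 and Cd24a only Sox2 passed without male DHT 3 (adjusted p = 0.0345, beside 0.102 for Rarres2 and 0.0578 for Cd24a). Cd24a, a surface protein, thus fell by 0.50 in females (adjusted p = 0.00663) and rose by 0.47 in males (adjusted p = 0.0173), and its difference between the sexes passed (adjusted p = 0.0296, and 0.0778 without male DHT 3). The mean of 64 axonemal genes was 1.80, 1.86 and 1.65 in female DHT libraries against 1.56, 1.52, 1.62 and 1.45 in female vehicle libraries, and 1.27, 1.65 and 1.74 in male DHT libraries against 1.64, 1.49, 1.43 and 1.68 in male vehicle libraries. DHT thus lay above vehicle in females by a margin that female DHT 3 made narrow, and the groups overlapped in males.

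**Figure D4:**
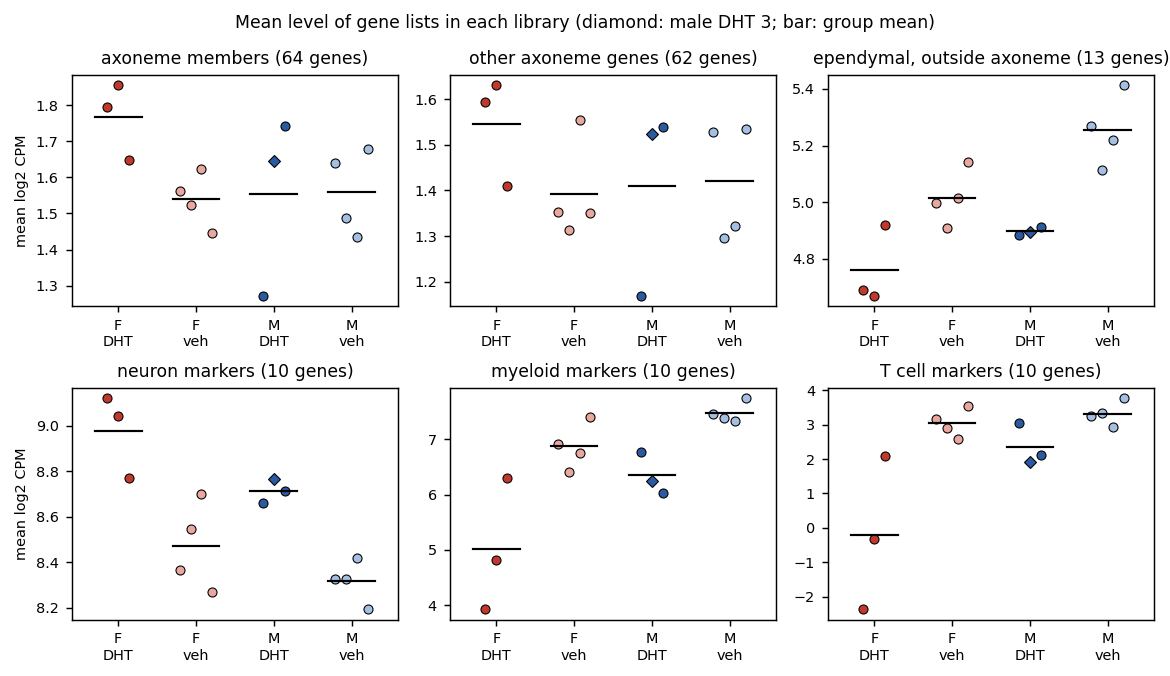
Mean log2 CPM of 6 gene lists in each library, with a bar at each group mean and a diamond for male DHT 3 (F, females; M, males; veh, vehicle). The axonemal lists are at their lowest in male DHT 2, ependymal genes outside the axoneme are lower with DHT in males without overlap, and T cell and myeloid markers are far lower in female DHT 1 and female DHT 2 than in female DHT 3.

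Markers of neighbouring cell types were read for the same libraries. Ttr and Otx2, defining markers of the choroid plexus, whose cells also carry cilia, were not analysed here, and the other 7 choroid plexus markers averaged a log2 CPM of 0.77 to 1.18 in female DHT libraries, against 0.40 to 1.07 in female vehicle libraries, and of 0.95 to 1.05 in male DHT libraries, against 0.56 to 1.54 in male vehicle libraries. The means overlapped in both sexes. Of the 7, Kl, a co-receptor for a phosphate hormone, rose by 0.85 and Prlr, the prolactin receptor, by 0.68 in females (adjusted p = 0.00478 and 0.00567), while Aqp1, a water channel, fell by 2.04 (adjusted p = 0.0449). These were 28.6% and 14.3% of the list, where 19.8% of all genes rose and 27.3% fell. In males Prlr rose by 0.69 (adjusted p = 0.0115, and 0.0562 without male DHT 3), 14.3% of the list, where 12.1% of all genes rose. The 6 markers of neurons that contact the cerebrospinal fluid differed by -0.07 in females and 0.03 in males, with Pkd2l1, their channel, up by 0.81 and Gata3 down by 0.999 in females (adjusted p = 0.00965 and 0.00525). Each was 16.7% of that list, where 19.8% of all genes rose and 27.3% fell. In males none of the 6 passed. Astrocyte markers averaged 0.13 less in females and 0.23 less in males with DHT, oligodendrocyte markers 0.30 and 0.33 more, and meningeal fibroblast markers 0.59 and 0.39 less. In males the last was 0.44 less without male DHT 3. Their part in the results of the cilia genes was not tested.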

How the data were processed

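The authors deposited log2 CPM values of 16703 genes in 14 libraries. The authors' tools were FastQC and Picard for quality, fastp for trimming, DRAGEN for alignment to mm10 and gene counts (GENCODE), RUVSeq for joining both sexes through housekeeping genes, and edgeR for normalization, after a filter on faint genes. Columns of the authors' own fold changes and p-values were not used. In all libraries, 100% of linear values came out as whole counts within 0.05, and a gene without reads stands at 0.0631 CPM. Depth per library limits the faint genes most, and precision was taken from the spread between libraries.

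The 4 groups were fitted in one linear model to the deposited values with limma 3.58.1 (R 4.3.3), using eBayes with its trend option after lmFit and contrasts.fit, with no further pseudocount or filter. The labels do not say more of how libraries relate to animals, so p-values measure the spread between these libraries. Adjusted p-values are Benjamini-Hochberg over all genes, at 0.05. The fit was tested on simulated data. Mean levels of marker lists were compared by exact permutation tests over 35 splits, two-sided and without adjustment. Genes named in the text are Foxj1, the 3 with the smallest p in each role and sex, the highest and lowest gene, and up to 4 per list. Cfap46, Cfap65, Cfap99, Dnah2, Dnah6, Dnah7c, Dnah8, Dnah10, Rsph3a, Cfap298, Spag6, Cfap126, Tekt4, Cfap77, Spag4, Spag5, Spag7, Tuba1a, Tubb4b and genes that complete a count of 5 or fewer were named after their values were seen. Genes, roles and lists were chosen with earlier results of these data known. Gene coordinates follow GENCODE M21 (GRCm38, which is mm10). Alternatives covered scaling, filter, pseudocounts of 0.5 and 1, each sex alone, voom, no trend and each library left out. A fit without male DHT 3 and female vehicle 3, and one with the missing direction as a covariate, were chosen after seeing the data. Python 3.11.15, numpy 2.4.6, pandas 2.3.3, scipy 1.17.1 and matplotlib 3.10.9 were used.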

Additional observations from a re-analysis of the deposited data

Results flagged for a closer look

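In groups of 4 vehicle libraries, 8 of 88 gene and group pairs had 1 library far from the others (a gap above 0.829 of the range), where chance gives about 1 in 20. In female vehicle libraries, Cfap410 was 5.02 log2 CPM in library 4, against 4.78 to 4.82 in the others (gap 0.868 of the range), Cfap58 -1.95 in library 1, against -1.31 to -1.26 (0.928), Dnah7a 0.55 in library 1, against 0.99 to 1.02 (0.937), and Rsph9 1.69 in library 3, against at least 1.97 (0.921). In male vehicle libraries, Cfap161 was -0.37 in library 3, against -0.20 to -0.19 (0.970), Cfap20 4.69 in library 2, against 4.83 to 4.84 (0.961), Cfap36 5.90 in library 4, against 6.04 to 6.05 (0.930), and Rsph4a 1.46 in library 3, against 1.84 to 1.91 (0.842). Without male vehicle 4, Cfap36 still rose with DHT in males.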

How the results depend on the processing

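Of 76 cilia genes, 15 passed in females, and the count was 37 after quantile normalization, 29 after median centring and 8 with each sex alone, and 5 to 24 over fits that left out 1 library. Over all genes 19.8% rose and 27.3% fell in females. These shares were 30.7% and 19.4% after quantile normalization, 33.3% and 19.2% after median centring, and 12.9% and 15.6% with each sex alone. In males 6 passed, 2 without both male DHT 3 and female vehicle 3, 3 with the missing direction taken as a covariate, and 3 to 11 with 1 library left out. Over all genes 12.1% rose and 10.7% fell in males, 3.11% and 3.44% without both libraries, and 5.12% and 5.05% with the covariate. For the difference between the sexes the count was 0, with 2 under quantile normalization and 0 to 5 with 1 library left out. Under quantile normalization 1.54% of all genes had a higher and 1.38% a lower effect in females. The median log2 fold change in females, 0.26, was 0.53 after quantile normalization and 0.42 after median centring, and 0.22 to 0.33 with 1 library left out. The median in males was -0.12 to 0.14 with 1 library left out. No called gene changed sign in any alternative, whereas up to 10 of 61 uncalled genes in females (quantile normalization) and up to 16 of 70 in males (without male DHT 2) did. The cause of these shifts was not tested. No paired analysis was possible because every label gives the same replicate number, and the numbers in the column headings are in no label. Genes under about 20 reads, such as Cfap58 and Dnah3, are limited by depth.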
